A study of Mus musculus with 12 samples.

Results

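The genes described here encode the nuclear subunits of oxidative phosphorylation, the cytochrome c carrier and those assembly factors that share the subunits' name stems. They were taken by symbol: a transcript cluster of the array entered when the platform annotation gave it exactly 1 gene symbol and that symbol began with Nduf, Uqc, Cox4, Cox5, Cox6, Cox7, Cox8 or Atp5, or was Sdha, Sdhb, Sdhc, Sdhd or Cycs. This gave 106 clusters of 93 genes, out of 22180 genes with such a cluster, and each gene was represented by its cluster with the highest mean over all 12 arrays. The rule itself uses symbols and mean brightness, and no difference between groups. By complex, the members were 40 genes of complex I, 4 of complex II, 11 of complex III, 19 of complex IV, 18 of complex V and cytochrome c. By role, 11 were assembly factors (Ndufaf1 to Ndufaf8 and Uqcc1 to Uqcc3), and Atp5c1-ps and Uqcrh-ps1 are pseudogenes. A further 10 clusters of such genes carried a second symbol, among them those of Cox6c, Uqcr10 and Ndufs6, and are not described.

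Oxidative phosphorylation takes place in the inner mitochondrial membrane. Complex I (NADH dehydrogenase) and complex II (succinate dehydrogenase) pass electrons to ubiquinone, complex III (cytochrome bc1) passes them to cytochrome c, and complex IV (cytochrome c oxidase) hands them to oxygen, while complexes I, III and IV pump protons that drive complex V (ATP synthase). Most subunits are encoded in the nucleus and a few in mitochondrial DNA, and assembly factors help to build the complexes without staying in them. Colonocytes are known for oxidising butyrate made by the microbiota, and absorptive cells of the small intestine for using glutamine among other fuels.

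The arrays hold RNA of intestinal epithelial cells released with EDTA from male mice of C57BL/6J background aged 11 weeks, with 3 arrays in each of 4 groups. Small-intestinal epithelial cells (S-IECs, from the ileum) and large-intestinal epithelial cells (L-IECs, from the colon) came from Nfat5IEC-KO mice, in which Cre driven by the villin promoter (Vil-Cre) acts on loxP-flanked Nfat5 alleles, and from Nfat5fl/fl mice, which carry the flanked alleles without Cre. No treatment was given. Nfat5 encodes a transcription factor of the response to high osmolarity. Levels are log2 array signals, so a difference of 1 is a 2-fold change, and they are compared between samples of a gene and not between genes. The tests compare 3 arrays with 3, p-values measure the spread between these arrays, whose labels number mice but do not say whether an S-IEC and an L-IEC array of the same number share a mouse, and "adjusted p" is the limma p-value after Benjamini-Hochberg adjustment over all 25341 clusters with a gene symbol.

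The arrays resembled each other in distribution, with medians between 4.75 and 4.80 and correlations between 0.988 and 0.992 within groups. Nfat5 itself was at 8.09, 7.84 and 8.02 in the S-IECs labelled Nfat5IEC-KO and 8.03, 8.03 and 8.17 in Nfat5fl/fl S-IECs, and the groups overlapped (adjusted p = 0.763). In L-IECs it was at 6.923, 6.903 and 6.997 in Nfat5IEC-KO mice and 7.49, 7.45 and 7.54 in Nfat5fl/fl mice, with no overlap. The difference was -0.55 ± 0.09 (SE), with a limma p of 0.000285 before adjustment and an adjusted p of 0.544. The position of its probes relative to the deleted part of the gene was not given in the sources used here, so on these arrays the genotype of S-IECs rests on the labels. For mice of this line the paper reports less Nfat5 mRNA in intestinal epithelial cells and less NFAT5 protein in the epithelium. The tissue labels were borne out by marker genes: of 17 absorptive enterocyte markers, 17 were higher in S-IECs than in L-IECs in either genotype, and of 12 colonocyte markers, 8 were lower and 2 higher. The S-IEC arrays of Nfat5fl/fl mice were not alike in one of these colonocyte markers, the carbonic anhydrase Car1: it was at 4.97, 3.65 and 4.84 in S-IECs of Nfat5IEC-KO mice and 4.32, 9.75 and 8.59 in those of Nfat5fl/fl mice, where L-IECs lay between 12.6 and 12.8. The results that rest on the second and the third of these Nfat5fl/fl arrays are also given without both, in a fit of the other 10 arrays that was chosen after seeing the data and takes the lone array left to vary like the rest. The part of cells with this marker in the members' levels was not tested.

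The tissue comparison asked how levels in S-IECs stand against those in L-IECs. Many nuclear oxidative phosphorylation genes were lower in S-IECs, and few were higher. At an adjusted p under 0.05, 54 of the 93 members fell in S-IECs of Nfat5IEC-KO mice and 33 in S-IECs of Nfat5fl/fl mice, against 14.7% and 10.4% of all clusters tested. In the other direction 2 and 0 members rose, where 10.0% and 7.20% of all clusters did. The median difference of the members was -0.43 (0.744-fold) in Nfat5IEC-KO mice and -0.30 (0.812-fold) in Nfat5fl/fl mice, and the median over all clusters was 0.02 and 0.00. Without the second and the third S-IEC arrays of Nfat5fl/fl mice 26 members fell and 0 rose there, with a median of -0.36. The share of all clusters called without these arrays was not counted. With single arrays left out in turn, 35 of the 54 and 20 of the 33 calls passed each time. Levels in the S-IEC arrays lay below every L-IEC array for 64 members in Nfat5IEC-KO mice and 61 in Nfat5fl/fl mice (21.8% and 18.9% of all clusters), and above them for 2 and 4 members (18.8% and 15.2%). For 55 members the arrays did not overlap, with S-IECs lower, in both genotypes. The share of all clusters for which this held in both was not counted. Standard errors of the members' differences ran between 0.100 and 0.217 in Nfat5IEC-KO mice and between 0.096 and 0.232 in Nfat5fl/fl mice. In such bulk RNA, fewer cells of a type and less RNA per cell cannot be told apart.

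Bright clusters were called more often on this array than dim ones, so members above the median level were also set beside the clusters above it. This split is coarse: the median level of the members lay between 7.07 and 7.74 on the arrays, and brightness was not matched further. Of the 93 members, 81 had a mean above 4.79, the median of all clusters tested. Of these 81, 53 fell in Nfat5IEC-KO mice and 33 in Nfat5fl/fl mice, where 26.4% and 18.0% of the clusters above the median did. Only 1 of the 81 rose, in Nfat5IEC-KO mice, against 14.7% and 11.7% of those clusters. The other 12 members, among them Cox4i2, Cox6a2, Cox7b2, Cox8b, Cox8c, Ndufa4l2 and both pseudogenes, had means below it, and 1 of them fell and 1 rose in Nfat5IEC-KO mice.

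Complex I had the most genes. Of its 40 members, 28 fell in S-IECs of Nfat5IEC-KO mice and 15 in those of Nfat5fl/fl mice, with medians of -0.49 and -0.34, and none rose. Ndufa1, an accessory subunit encoded on the X chromosome (chrX:37187588-37191238), was at 8.28, 8.24 and 8.13 in S-IECs and 9.12, 9.14 and 9.10 in L-IECs of Nfat5IEC-KO mice. In Nfat5fl/fl mice it was at 7.93, 8.28 and 8.21 in S-IECs and 9.13, 9.03 and 9.12 in L-IECs. All 6 S-IEC arrays lay below all 6 L-IEC arrays, and the difference was -0.90 (adjusted p = 0.000238) in Nfat5IEC-KO mice and -0.96 (adjusted p = 0.000558) in Nfat5fl/fl mice. Ndufa12, another accessory subunit, was at 7.18, 7.18 and 7.10 in S-IECs and 8.31, 8.12 and 7.95 in L-IECs of Nfat5IEC-KO mice, a difference of -0.97 (adjusted p = 0.000397). Its levels in Nfat5fl/fl mice were 7.30, 7.24 and 7.52 in S-IECs and 8.06, 8.09 and 8.08 in L-IECs, a difference of -0.72 (adjusted p = 0.00183). The accessory subunit Ndufa7 fell in both genotypes, with differences of -0.70 in Nfat5IEC-KO mice and -0.87 in Nfat5fl/fl mice, with S-IECs between 5.67 and 5.95 and L-IECs between 6.43 and 6.71.

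The catalytic core of complex I went the same way as its accessory subunits. Of the 6 nuclear core subunits measured, 5 fell in Nfat5IEC-KO mice and 1 (Ndufv2, of the NADH-oxidising module) in Nfat5fl/fl mice. The Nfat5IEC-KO calls of Ndufs1, Ndufs3, Ndufv1 and Ndufv2 were lost without some single arrays, with adjusted p up to 0.0894, 0.0913, 0.0853 and 0.0658. The S-IEC arrays lay below the L-IEC arrays for 6 of the 6 in both genotypes. Among the 26 accessory subunits the counts were 18 and 13. Of the 8 complex I assembly factors, 5 fell in Nfat5IEC-KO mice and 1 in Nfat5fl/fl mice. That gene was Ndufaf7, a methyltransferase that modifies a core subunit, at 5.82, 6.01 and 5.74 in S-IECs and 6.87, 6.97 and 6.51 in L-IECs of Nfat5IEC-KO mice and at 5.86, 6.04 and 6.07 in S-IECs and 6.80, 6.52 and 6.74 in L-IECs of Nfat5fl/fl mice. Its differences were -0.93 and -0.70 (adjusted p = 0.00151 and 0.00348). Several complex I genes showed little: Ndufb7, Ndufb3 and Ndufaf8 differed by between -0.12 and 0.11 in either genotype and passed no test.

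**Figure D1:**
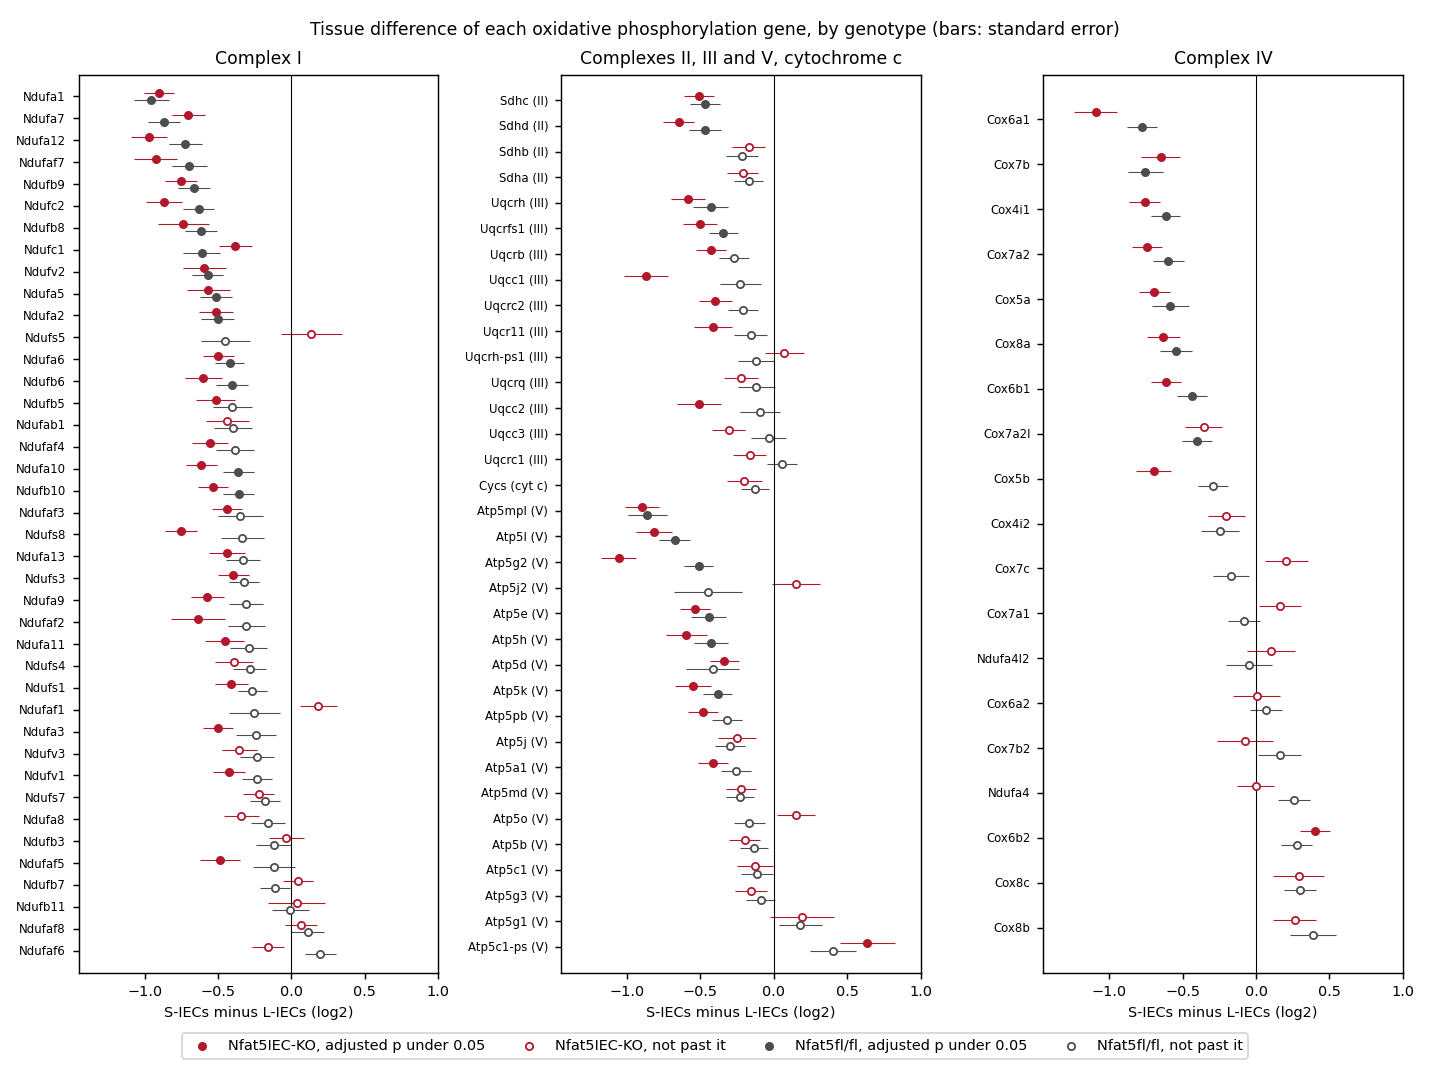
Difference in log2 level, S-IECs minus L-IECs, of each of the 93 members (x axis), in panels by complex, with red circles for Nfat5IEC-KO mice above grey circles for Nfat5fl/fl mice. Filled circles passed an adjusted p of 0.05, bars are standard errors, and 54 red and 33 grey filled circles lie left of 0 while 2 red ones lie right of it.

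Complex II has 4 subunits, all nuclear, and the calls fell on its membrane anchors Sdhc and Sdhd, in both genotypes. Sdhd was at 7.71, 7.89 and 7.85 in S-IECs and 8.52, 8.42 and 8.45 in L-IECs of Nfat5IEC-KO mice and at 7.81, 7.93 and 7.95 in S-IECs and 8.45, 8.39 and 8.24 in L-IECs of Nfat5fl/fl mice. The differences were -0.65 and -0.47 for Sdhd (adjusted p = 0.00201 and 0.0159) and -0.51 and -0.47 for Sdhc. The Nfat5fl/fl call of Sdhd was lost without the first S-IEC array (adjusted p = 0.0575) or the first L-IEC array (adjusted p = 0.0607) of these mice. The flavoprotein Sdha and the iron-sulfur protein Sdhb, which also serve in the citric acid cycle, differed by -0.21 and -0.17 and by -0.17 and -0.21, and neither passed the test. With a variance trend and robust fit, Sdha fell in Nfat5IEC-KO mice (adjusted p = 0.0477). Whether anchors and catalytic subunits differed from each other was not tested.

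Of the 11 complex III members, 7 fell in Nfat5IEC-KO mice and 2 in Nfat5fl/fl mice. In Nfat5fl/fl mice these were Uqcrfs1, the Rieske iron-sulfur protein, and Uqcrh, the hinge protein, both of which fell in Nfat5IEC-KO mice too. Uqcrh was at 7.74, 7.56 and 7.64 in S-IECs and 8.34, 8.10 and 8.25 in L-IECs of Nfat5IEC-KO mice, against 7.58, 7.58 and 7.85 in S-IECs and 8.17, 7.99 and 8.15 in L-IECs of Nfat5fl/fl mice, with differences of -0.58 and -0.43 (adjusted p = 0.00525 and 0.0359). The Nfat5fl/fl call of Uqcrh was lost under 7 of its alternatives, with adjusted p up to 0.113, and that of Uqcrfs1 without each of the 6 arrays in turn, with adjusted p up to 0.118. Uqcc1, an assembly factor for the cytochrome b subunit, fell by 0.87 in Nfat5IEC-KO mice (adjusted p = 0.0025) and differed by -0.23 in Nfat5fl/fl mice (adjusted p = 0.331). The large subunit Uqcrc1 overlapped between tissues in Nfat5IEC-KO and Nfat5fl/fl mice alike (differences of -0.17 and 0.06).

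In complex IV most calls lay in the widespread forms. Its subunits often exist as a widespread form and a form of muscle, testis or other tissues. Of the 10 accessory subunits of the widespread form, 8 fell in Nfat5IEC-KO mice and 7 in Nfat5fl/fl mice, with medians of -0.67 and -0.57. Cox6a1, the widespread form of subunit 6A, was at 10.86, 11.39 and 11.07 in S-IECs and 12.12, 12.22 and 12.26 in L-IECs of Nfat5IEC-KO mice and at 11.26, 11.34 and 11.38 in S-IECs and 12.05, 12.07 and 12.18 in L-IECs of Nfat5fl/fl mice. Its difference of -1.09 (adjusted p = 0.000573) was the most negative of the 93 members in Nfat5IEC-KO mice, and it was -0.78 (adjusted p = 0.000717) in Nfat5fl/fl mice. Cox4i1, a subunit needed early in assembly, was at 9.66, 9.74 and 9.61 in S-IECs and 10.44, 10.38 and 10.48 in L-IECs of Nfat5IEC-KO mice. It was at 9.69, 9.67 and 9.80 in S-IECs and 10.35, 10.28 and 10.38 in L-IECs of Nfat5fl/fl mice, and the differences were -0.76 and -0.62 (adjusted p = 0.000673 and 0.00263). Cox6b1, Cox7a2, Cox8a, Cox5a and Cox7b fell too, with differences between -0.76 and -0.43 over both genotypes. The Nfat5fl/fl call of Cox6b1 was lost without the first S-IEC array (adjusted p = 0.063), the first L-IEC array (adjusted p = 0.0666) or the third L-IEC array (adjusted p = 0.0524) of these mice.

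None of the 7 alternative forms (Cox4i2, Cox6a2, Cox6b2, Cox7a1, Cox7b2, Cox8b and Cox8c) fell, and their median difference was 0.16 in either genotype, with 5 of the 7 among the dim clusters; whether they differed from the widespread forms was not tested. Cox6b2, the testis form of subunit 6B, was at 5.19, 5.14 and 5.21 in S-IECs and 4.76, 4.76 and 4.80 in L-IECs of Nfat5IEC-KO mice, a difference of 0.40 (adjusted p = 0.0178) whose call was lost without 3 single arrays in turn, with adjusted p up to 0.0607. In Nfat5fl/fl mice it was at 5.08, 4.96 and 4.92 in S-IECs and 4.82, 4.69 and 4.63 in L-IECs (difference 0.28, adjusted p = 0.121), and it passed there with a filter on dim clusters (adjusted p = 0.0439). All 6 S-IEC arrays were above all 6 L-IEC arrays. Cox4i2 and Cox6a2 differed by -0.20 and 0.00 in Nfat5IEC-KO mice and by -0.24 and 0.07 in Nfat5fl/fl mice. Cox7a1, the heart and muscle form of subunit 7A, differed by 0.16 and -0.08, and Cox8b, the heart and muscle form of subunit 8, by 0.26 and 0.39. Ndufa4, named after complex I but counted here with complex IV, of which it is a subunit, was at 8.24, 8.39 and 8.08 in S-IECs and 8.23, 8.37 and 8.13 in L-IECs of Nfat5IEC-KO mice. It was at 8.24, 8.47 and 8.42 in S-IECs and 8.12, 8.06 and 8.17 in L-IECs of Nfat5fl/fl mice, where the S-IEC arrays were the higher ones (difference 0.26, adjusted p = 0.148, and 0.0424 with a variance trend and robust fit). Its paralogue Ndufa4l2 was dim and differed by 0.10 and -0.05.

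**Figure D2:**
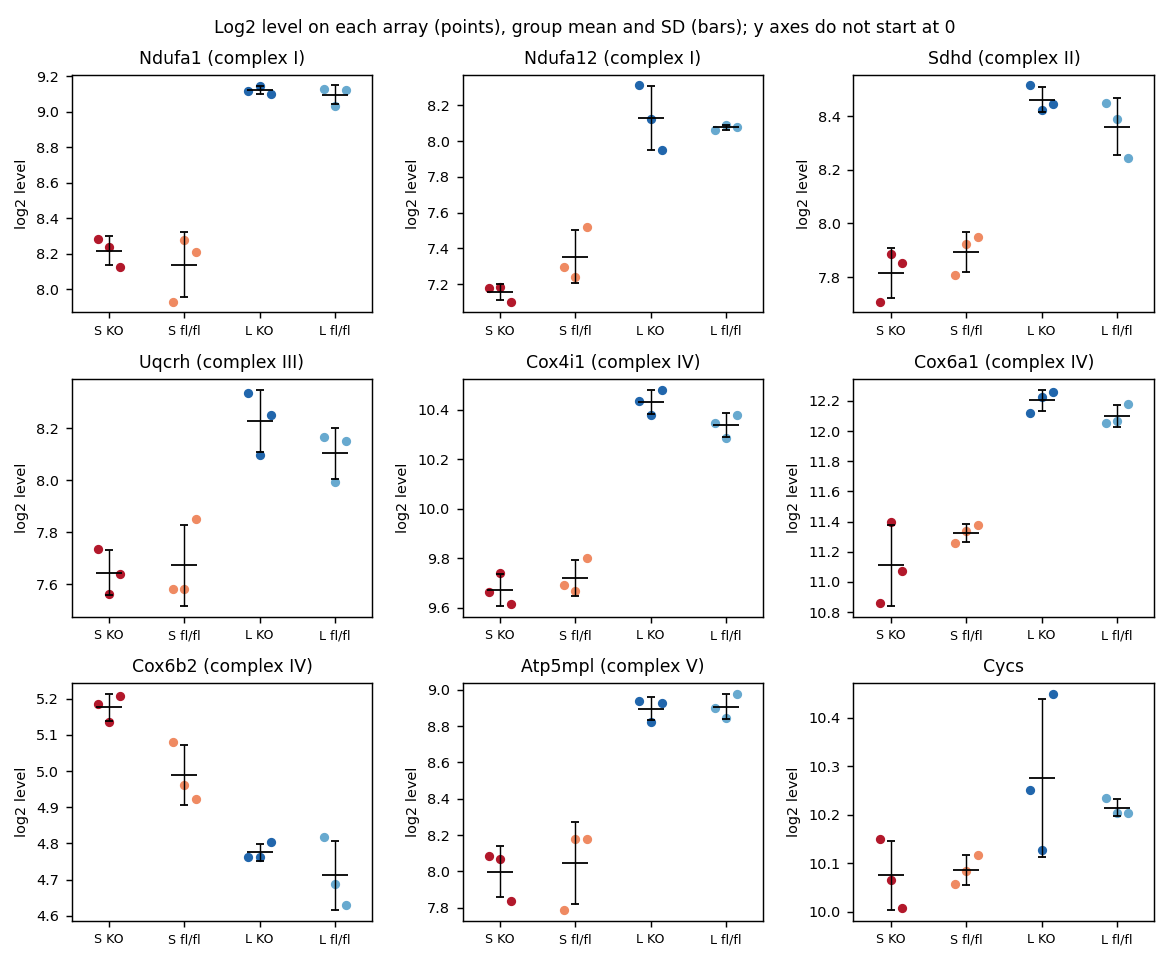
Log2 level on each array (points) of 9 members in S-IECs and L-IECs of Nfat5IEC-KO (KO) and Nfat5fl/fl (fl/fl) mice, with the group mean and SD as bars; the y axes do not start at 0. Ndufa1, Ndufa12, Sdhd, Uqcrh, Cox4i1, Cox6a1 and Atp5mpl lie lower in all S-IEC arrays, Cox6b2 lies higher, and for Cycs the tissues overlap in Nfat5IEC-KO mice.

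Of the 18 members of complex V, 9 fell in Nfat5IEC-KO mice and 6 in Nfat5fl/fl mice. These were 6 and 5 of the 12 members of the membrane part and stalks (Fo) and 3 and 1 of the 5 of the catalytic head (F1). Atp5mpl, a small subunit of the membrane part, was at 8.09, 8.07 and 7.84 in S-IECs and 8.94, 8.82 and 8.93 in L-IECs of Nfat5IEC-KO mice and at 7.79, 8.18 and 8.18 in S-IECs and 8.90, 8.84 and 8.98 in L-IECs of Nfat5fl/fl mice, with differences of -0.90 and -0.86 (adjusted p = 0.000458 and 0.00178). In the catalytic head Atp5b, the beta subunit, differed by -0.20 and -0.14, and Atp5c1, the gamma subunit, by -0.13 and -0.11, none past the threshold. The pseudogene Atp5c1-ps, a dim cluster, rose by 0.64 in Nfat5IEC-KO mice (adjusted p = 0.0353). That call was lost under 7 alternatives, and its probes may also bind the RNA of the parent gene.

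Subunit c, which forms the rotating ring of ATP synthase, is encoded by Atp5g1, Atp5g2 and Atp5g3, whose mature proteins are alike and whose import sequences differ. Atp5g2 passed the test between tissues and the other 2 genes did not. Atp5g2 was at 8.58, 8.73 and 8.48 in S-IECs and 9.59, 9.60 and 9.78 in L-IECs of Nfat5IEC-KO mice, a difference of -1.06 (adjusted p = 0.00019), and at 8.86, 8.94 and 8.97 in S-IECs and 9.39, 9.44 and 9.47 in L-IECs of Nfat5fl/fl mice, a difference of -0.51 (adjusted p = 0.00661). Atp5g3 lay between 8.68 and 8.98 on all 12 arrays and differed by -0.15 and -0.09. Atp5g1 differed by 0.19 and 0.18. A further cluster of Atp5g2 gave -0.92 and -0.45, both past the threshold. Cycs, the cytochrome c of somatic cells, was at 10.15, 10.07 and 10.01 in S-IECs and 10.25, 10.13 and 10.45 in L-IECs of Nfat5IEC-KO mice, against 10.06, 10.08 and 10.12 in S-IECs and 10.23, 10.20 and 10.20 in L-IECs of Nfat5fl/fl mice. The differences of -0.20 and -0.13 did not pass the test (adjusted p = 0.274 and 0.436). In an unpaired t-test of each cluster the Nfat5fl/fl difference did, with an adjusted p of 0.033. That test is called the methods' t-test below, since the paper's general statistics section names it. The sources used here gave no model for the arrays.

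The comparisons in Nfat5IEC-KO mice and in Nfat5fl/fl mice share no arrays. Of the 54 and 33 members that fell, 32 were shared, which is 59.3% of the Nfat5IEC-KO list and 97.0% of the Nfat5fl/fl list, and Cox7a2l, a factor of respiratory supercomplexes, was the single member called in Nfat5fl/fl mice alone (adjusted p = 0.0257, against 0.0723 in Nfat5IEC-KO mice). Its call was lost without 5 of the 6 arrays in turn, with adjusted p up to 0.0882. How many calls the genotypes shared over all clusters was not counted. Across the 93 members the differences of both genotypes correlated with r = 0.805 (rho = 0.807), where the value over all clusters was 0.904; members are not independent of each other and no p is given. The differences were the more negative in Nfat5IEC-KO mice for 69 members, against 12259 of all 25341 clusters. None of the 93 differed between genotypes in its tissue difference at an adjusted p under 0.05. Leaving out the first Nfat5fl/fl array of S-IECs or the first of L-IECs took the 33 calls to 21 each.

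**Figure D3:**
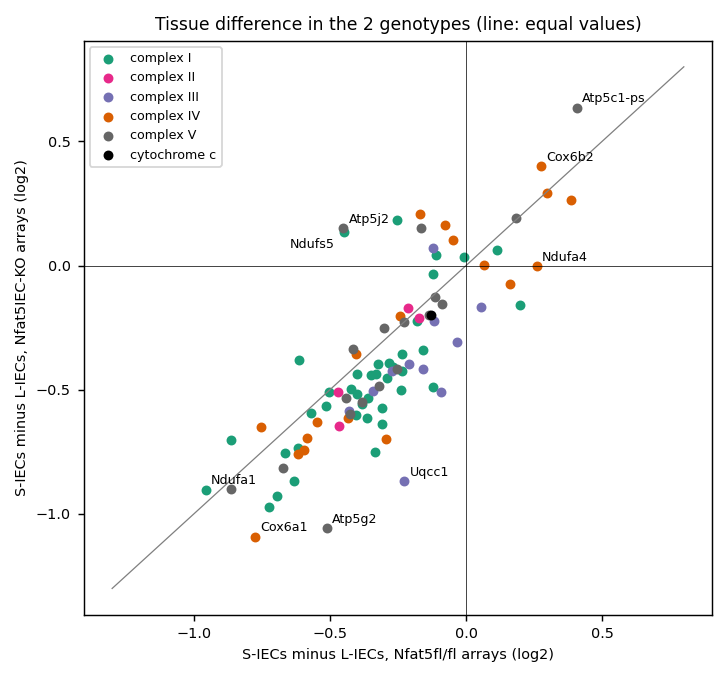
Difference in log2 level, S-IECs minus L-IECs, of each of the 93 members in Nfat5fl/fl mice (x axis) and in Nfat5IEC-KO mice (y axis), coloured by complex, with the line of equal values. Most points lie in the lower left, 69 lie below the line, and Atp5g2 (-0.51 and -1.06) and Uqcc1 (-0.23 and -0.87) lie far below it.

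Members with further clusters mostly repeated these directions. The 13 other clusters, of 10 genes, lay below 0 for 11 in Nfat5IEC-KO mice and 9 in Nfat5fl/fl mice, and 4 and 3 fell. The dimmer clusters of Atp5h, of the ATP synthase stalk, and Ndufa11, an accessory subunit of complex I, went against the brighter ones. That of Atp5h was at 0.08 in Nfat5IEC-KO mice and rose in Nfat5fl/fl mice by 0.64 (adjusted p = 0.0303), where the brighter cluster gave -0.60 and -0.43 (adjusted p = 0.0128 and 0.0342). That of Ndufa11 was at 0.09 and 0.36, where the brighter cluster gave -0.45 and -0.29 (adjusted p = 0.0358 and 0.166). Cycs stayed between -0.27 and 0.02 over its 4 other clusters, some of which held identical values on every array and are counted separately here.

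Genes around the respiratory chain were set beside the members. The 10 subunits encoded in mitochondrial DNA that could be matched passed no test between tissues: none had an unadjusted p under 0.05, and the medians were 0.04 in Nfat5IEC-KO mice and -0.01 in Nfat5fl/fl mice. Their mean level was 12.8 to 13.1 on every array, near the highest value of 13.6 in the table, and whether they differed from the nuclear members was not tested. Complex IV assembly and copper delivery genes fell for 11 of 18 in Nfat5IEC-KO mice and 5 of 18 in Nfat5fl/fl mice, with 0 and 1 that rose. In this list Cox10, which makes the heme of complex IV, fell (differences of -1.17 and -0.88). Complex I assembly genes outside the Nduf stem fell for 5 and 2 of 9, with Acad9 at -0.69 and -0.55. Pyruvate dehydrogenase and citric acid cycle genes fell for 11 and 5 of 16 and rose for 5 and 2, and Suclg2, the GTP-forming succinyl-CoA ligase subunit, and Dlat, of pyruvate dehydrogenase, fell (-1.36 and -1.09 for Suclg2, -1.25 and -1.05 for Dlat). Glycolysis genes also fell, 7 of 12 in either genotype with 1 that rose, and Hk2, a hexokinase, fell (-2.355 and -2.015), as did Pfkl, a phosphofructokinase (-2.07 and -1.88). Among 20 factors of mitochondrial transcription, replication and biogenesis, 4 fell in either genotype and 3 and 1 rose. The coactivator Ppargc1b fell (-1.29 and -0.996), as did the mitochondrial transcription factor Tfb2m (-1.12 and -0.775), and the nuclear receptor Esrra rose by 0.61 and 0.54. Of 7 carriers and porins, 3 fell and 1 rose in either genotype, with Vdac3 at -1.17 and -0.96, and Ckmt1, a mitochondrial creatine kinase, at -0.56 and -0.64. Of 10 assembly genes of complexes II, III and V, 1 and 2 fell, with Bcs1l at -0.69 in Nfat5IEC-KO mice and Lyrm7 at -0.81 in Nfat5fl/fl mice. Of 5 further subunits and partners, 4 and 2 fell and 0 and 1 rose, with Higd1a at -1.99 and -1.89.

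Markers of cell types differed between the tissues along with these genes. Of 11 Paneth cell markers, 9 were higher and 2 lower in S-IECs of Nfat5IEC-KO mice and 9 were higher and 1 lower in those of Nfat5fl/fl mice. Of 13 goblet cell markers, 10 and 8 were lower and 0 and 1 higher, and of 13 T cell and intraepithelial lymphocyte markers, 7 were higher in either genotype, with a mean level of 4.83 to 5.33 in S-IECs and 4.32 to 4.49 in L-IECs. Of 18 mitosis genes, 10 were lower in Nfat5IEC-KO mice and 1 was higher in Nfat5fl/fl mice. B and plasma cell markers were higher for 1 of 7 in either genotype, myeloid markers for 4 and 2 of 11 with 1 lower, stem cell markers for 2 and 4 of 12 with 4 and 1 lower, and 1 of 14 stromal, endothelial and muscle markers was lower in either genotype. The mean level of the 17 enterocyte markers was 10.5 to 11.0 in S-IECs and 6.63 to 6.81 in L-IECs. The part of these cell types in the members' levels was not tested.

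The promoters of the members were read from the RefSeq table of GRCm38.p6, as windows of 300 bases around each annotated start, 250 of them before it. It held 76 of the 93 genes. Searched on both strands, GCGCATGCG, a core of the NRF1 (nuclear respiratory factor 1) motif, stood in 11 of the 76 (14.5%) and in 1.95% of all 27025 genes in the table. AAGATGGCG, a core of the YY1 motif, stood in 7 (9.21%) against 1.64%, and CCGGAAGT, a core of the ETS-factor motif that GABP also binds, in 5 (6.58%) against 4.31%. NRF1 matches that fall on both strands at once overlap by all but 1 base, since the motif reads almost the same on either strand, and they were counted once per gene. Of the 32 genes that fell in S-IECs in both genotypes, 27 had a promoter in the table, and 4, 1 and 3 of these held the NRF1, YY1 and ETS letters. A match is a description of the sequence and not a measured binding site. The stretch before the start is shown for 3 members with an NRF1 match, the isoform Atp5g2 and Cox6a1, which fell in S-IECs in both genotypes, and Cycs, which did not pass the test in either, and for Uqcrh with an ETS match. The matches are in capitals, the sequences run 5′ to 3′ along the gene, and the genes all lie on the minus strand, at chr15:102671048-102671297 for Atp5g2, chr5:115348959-115349208 for Cox6a1, chr6:50566570-50566819 for Cycs and chr4:116075071-116075320 for Uqcrh.
Atp5g2: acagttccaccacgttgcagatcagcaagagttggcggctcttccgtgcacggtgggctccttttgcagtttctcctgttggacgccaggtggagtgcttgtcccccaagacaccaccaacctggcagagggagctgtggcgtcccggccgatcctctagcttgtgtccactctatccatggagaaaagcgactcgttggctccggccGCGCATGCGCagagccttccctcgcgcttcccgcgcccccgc
Cox6a1: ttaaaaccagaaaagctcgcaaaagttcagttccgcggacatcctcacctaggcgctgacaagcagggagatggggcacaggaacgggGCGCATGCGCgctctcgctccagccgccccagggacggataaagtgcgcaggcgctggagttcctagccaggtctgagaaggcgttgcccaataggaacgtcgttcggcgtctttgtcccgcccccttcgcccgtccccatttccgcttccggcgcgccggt
Cycs: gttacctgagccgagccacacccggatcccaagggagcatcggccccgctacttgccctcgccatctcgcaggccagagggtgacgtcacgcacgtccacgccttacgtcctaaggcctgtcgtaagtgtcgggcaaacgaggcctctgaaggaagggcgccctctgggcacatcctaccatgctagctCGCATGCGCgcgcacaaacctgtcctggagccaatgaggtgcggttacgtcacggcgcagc
Uqcrh: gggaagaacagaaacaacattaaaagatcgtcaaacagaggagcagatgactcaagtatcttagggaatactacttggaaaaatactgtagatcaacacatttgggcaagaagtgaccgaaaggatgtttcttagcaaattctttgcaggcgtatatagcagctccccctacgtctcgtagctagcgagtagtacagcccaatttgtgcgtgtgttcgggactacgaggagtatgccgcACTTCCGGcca
Counted from the annotated start, the NRF1 matches began at position -42 in Atp5g2, -162 in Cox6a1 and -61 in Cycs, and the ETS match at -11 in Uqcrh; those of Cycs and Uqcrh read on the opposite strand.

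The genotype comparison in S-IECs asked what differed between mice labelled Nfat5IEC-KO and Nfat5fl/fl mice. None of the 93 members passed an adjusted p of 0.05, where 0.00789% of all clusters (2 clusters) did. At an unadjusted p under 0.05, 7 members were lower and 0 higher in the arrays labelled Nfat5IEC-KO (8.23% and 5.81% of all clusters), so the share of lower members was close to that of all clusters. These 7 were Uqcc1, Uqcc2, Ndufaf4, Ndufaf5, Ndufaf6, Ndufs8 and Atp5g2: 5 of the 11 assembly factors and 2 of the other 82 members, a grouping looked at after the values were seen. The median difference was -0.05 over all members and -0.14 over the assembly factors, against 0.01 over all clusters. Arrays of both genotypes did not overlap for 12 members with lower and 1 with higher levels in the arrays labelled Nfat5IEC-KO (10.4% and 9.80% of all clusters). Beside brighter clusters the share of lower members was smaller. Of the 12670 clusters above the median level, 1762 were lower and 807 higher at an unadjusted p under 0.05, against 6 and 0 of the 81 members there. Without overlap, 2141 of these clusters were lower and 1452 higher, against 11 and 1 of those members.

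Uqcc1 was at 5.29, 5.84 and 5.69 in S-IECs labelled Nfat5IEC-KO and 6.13, 6.33 and 6.31 in Nfat5fl/fl S-IECs, with no overlap, and the difference was -0.65 ± 0.16 (SE, unadjusted p = 0.0023, adjusted p = 0.138). When all 12 arrays shared one estimate of the spread, its adjusted p was 0.0421. Ndufaf6, needed for a mitochondrially encoded core subunit of complex I, was at 4.91, 4.69 and 4.79 against 5.13, 5.21 and 5.18 (difference -0.38, adjusted p = 0.184). Ndufaf4, a partner of the early membrane arm, was at 5.93, 5.71 and 5.65 against 6.04, 6.33 and 6.19 (difference -0.43, adjusted p = 0.192). In each of these factors all arrays labelled Nfat5IEC-KO lay below all Nfat5fl/fl arrays. The hydroxylase Ndufaf5, a dim cluster, and Ndufs8, a core subunit that carries iron-sulfur clusters, differed by -0.39 and -0.39. On the other side, Atp5o, of the ATP synthase stalk, Cox6b2, Atp5g1, the pseudogene Atp5c1-ps and Cox7c had differences of between 0.19 and 0.29 and adjusted p of at least 0.413. Of the other complexes, Sdhb differed by 0.13, Sdha by -0.01, Sdhc by -0.08, Sdhd by -0.08 and Cycs by -0.01. A dimmer cluster of Cycs was higher by 0.24 without overlap (adjusted p = 0.405), and the remaining Cycs clusters differed by -0.01. Cox4i1, Cox6a1, Cox6b1, Cox7a2 and Cox8a differed by between -0.22 and 0.00. Without the third array labelled Nfat5IEC-KO, or without the second or the third Nfat5fl/fl array, the 7 members became 3, 4 and 3. Without both the second and the third Nfat5fl/fl array 2 members were lower, Uqcc1 and Ndufaf6, and 1 higher, with a median of 0.005.

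**Figure D4:**
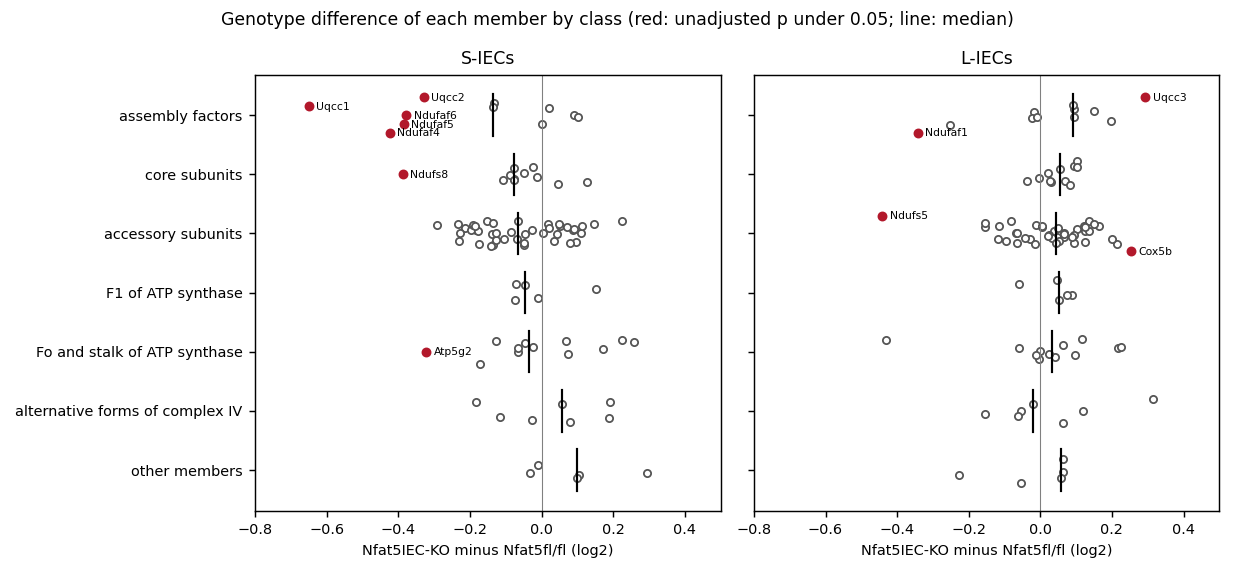
Difference in log2 level, Nfat5IEC-KO minus Nfat5fl/fl, of each member (x axis) in S-IECs (left) and L-IECs (right), in rows by class, with the class median as a line. Red points have an unadjusted p under 0.05, and the vertical spread within a row has no meaning. In S-IECs 5 of the 7 are assembly factors, a grouping looked at after the values were seen. The share of red members lower in S-IECs was close to that of all clusters (8.23%).

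Among related genes outside the name stems, of 9 complex I assembly genes outside the Nduf stem, 4 were lower and 1 higher at an unadjusted p under 0.05, with Tmem186 at -0.39 and Tmem126a at -0.41. Of 20 factors of transcription, replication and biogenesis, 2 were lower and 2 higher, with the coactivator Ppargc1a at 0.71 (adjusted p = 0.112) and its relative Pprc1 at -0.83 (adjusted p = 0.137). Lrpprc, which stabilises mitochondrial messenger RNAs, was at -0.74 (adjusted p = 0.137), the single gene of 18 in the complex IV assembly list with an unadjusted p under 0.05. Of 16 pyruvate dehydrogenase and citric acid cycle genes 1 was lower and 1 higher, of 12 glycolysis genes 1 was lower, and none of the carriers, of the other assembly genes or of the subunits encoded in mitochondrial DNA had an unadjusted p under 0.05.

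Markers of cell types and of mitosis differed between the same arrays, none of them past an adjusted p of 0.05. At an unadjusted p under 0.05, 10 of 11 Paneth cell markers, 7 of 12 stem cell markers, 7 of 13 goblet cell markers and 12 of 18 mitosis genes were lower in the arrays labelled Nfat5IEC-KO with 0 higher, and 10 of 17 enterocyte markers were higher with 0 lower. Of 12 colonocyte markers, 4 were lower and 2 higher, with Car1 at -3.07 (adjusted p = 0.278), and their mean level was 7.32, 7.38 and 7.46 in the arrays labelled Nfat5IEC-KO and 7.29, 7.98 and 7.90 in Nfat5fl/fl arrays. The mean level of the mitosis genes was 5.87, 6.43 and 5.90 in the arrays labelled Nfat5IEC-KO and 6.40, 6.72 and 6.89 in Nfat5fl/fl arrays, and that of the Paneth cell markers was 9.15, 10.0 and 9.08 against 10.2, 10.5 and 10.4. The second array labelled Nfat5IEC-KO lay nearest to Nfat5fl/fl in both. Without it 9 members were lower and 2 higher. The part of these lists in the members' levels was not tested.

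In L-IECs fewer clusters had a small p. None of the 93 members passed an adjusted p of 0.05, and none of all clusters did (0% called). At an unadjusted p under 0.05, 2 members were higher and 2 lower in Nfat5IEC-KO mice (2.97% and 3.35% of all clusters), and the median difference was 0.05 against 0.00 over all clusters. Arrays did not overlap for 14 members that lay higher and 4 that lay lower in Nfat5IEC-KO mice (5.83% and 6.24%). Uqcc3, an assembly factor of complex III, was at 6.57, 6.60 and 6.60 in Nfat5IEC-KO mice and 6.13, 6.36 and 6.40 in Nfat5fl/fl mice (difference 0.29, adjusted p = 0.769). Cox5b, a zinc-binding subunit of complex IV, was at 9.53, 9.58 and 9.80 against 9.39, 9.35 and 9.41 (difference 0.25, adjusted p = 0.782). A further, dimmer cluster of Cox5b went the other way without overlap, at 4.92, 4.91 and 4.99 against 5.36, 5.24 and 5.27 (difference -0.35, adjusted p = 0.744). On the lower side stood Ndufs5, an accessory subunit at 3.65, 4.29 and 4.35 against 4.60, 4.60 and 4.43, and the assembly factor Ndufaf1, with differences of -0.44 and -0.34. Ndufs5 is a dim cluster. Uqcrb and Ndufa6, accessory subunits of complexes III and I, had differences of 0.20 and 0.16, and Atp5j2, Ndufaf4 and the pseudogene Uqcrh-ps1 of -0.43, -0.25 and -0.23. Atp5j2 and Uqcrh-ps1 are dim clusters too. Sdhd differed by 0.10 and Cycs by 0.06. Of the pathway lists, Tfb2m (0.36), the lactate dehydrogenase Ldhb (0.25) and the adenine nucleotide carrier Slc25a4 (0.37) had an unadjusted p under 0.05, with adjusted p of 0.766, 0.788 and 0.744. These counts are small and moved with the arrays used: without the second or the third Nfat5IEC-KO array, or without the first Nfat5fl/fl array, 0 members were higher. Without the second or the third Nfat5fl/fl array 1 was higher, and without the first Nfat5IEC-KO array or the second Nfat5fl/fl array 0 were lower.

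Whether the genotype difference itself differed between the tissues was tested over all 12 arrays. None of the members passed an adjusted p of 0.05, as none of all clusters did (0% called). At an unadjusted p under 0.05 the genotype difference in S-IECs was the lower for 5 members and the higher for 0 (6.30% and 4.53% of all clusters), and the median over the members was -0.11 against 0.01 over all clusters. The 5 were Atp5g2, Uqcc1, Cox5b, Ndufaf6 and Ndufs8. Of the 12670 clusters above the median level, 1293 had the lower genotype difference in S-IECs and 557 the higher, against 5 and 0 of the 81 members there. Atp5g2 was at 8.58, 8.73 and 8.48 in S-IECs labelled Nfat5IEC-KO and 8.86, 8.94 and 8.97 in Nfat5fl/fl S-IECs, and at 9.59, 9.60 and 9.78 in L-IECs of Nfat5IEC-KO mice and 9.39, 9.44 and 9.47 in those of Nfat5fl/fl mice. The arrays labelled Nfat5IEC-KO were the lower in S-IECs and the higher in L-IECs, without overlap in either tissue. The genotype differences were -0.32 and 0.22, and they differed by -0.55 ± 0.14 (SE, unadjusted p = 0.00197, adjusted p = 0.247). With a variance trend and robust fit the adjusted p was 0.0489. The further cluster of Atp5g2 had a genotype difference of -0.34 in S-IECs and one of 0.13 in L-IECs, while Atp5g3 gave -0.07 and 0.00 and Atp5g1 0.22 and 0.22. The difference between tissues was -0.64 for Uqcc1, -0.41 for Cox5b, -0.36 for Ndufaf6 and -0.42 for Ndufs8. The further, dimmer cluster of Cox5b gave 0.18. Without the second S-IEC array labelled Nfat5IEC-KO 7 members stood lower and 3 higher, and without the second and the third S-IEC arrays of Nfat5fl/fl mice 1 stood lower, Atp5g2, and 3 higher. On the higher side Ndufs5, Atp5o, Cox7c, Ndufaf1 and Atp5j2 came nearest, at between 0.32 and 0.60, with adjusted p of at least 0.5. Ndufs5 and Atp5j2 are dim clusters.

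**Figure D5:**
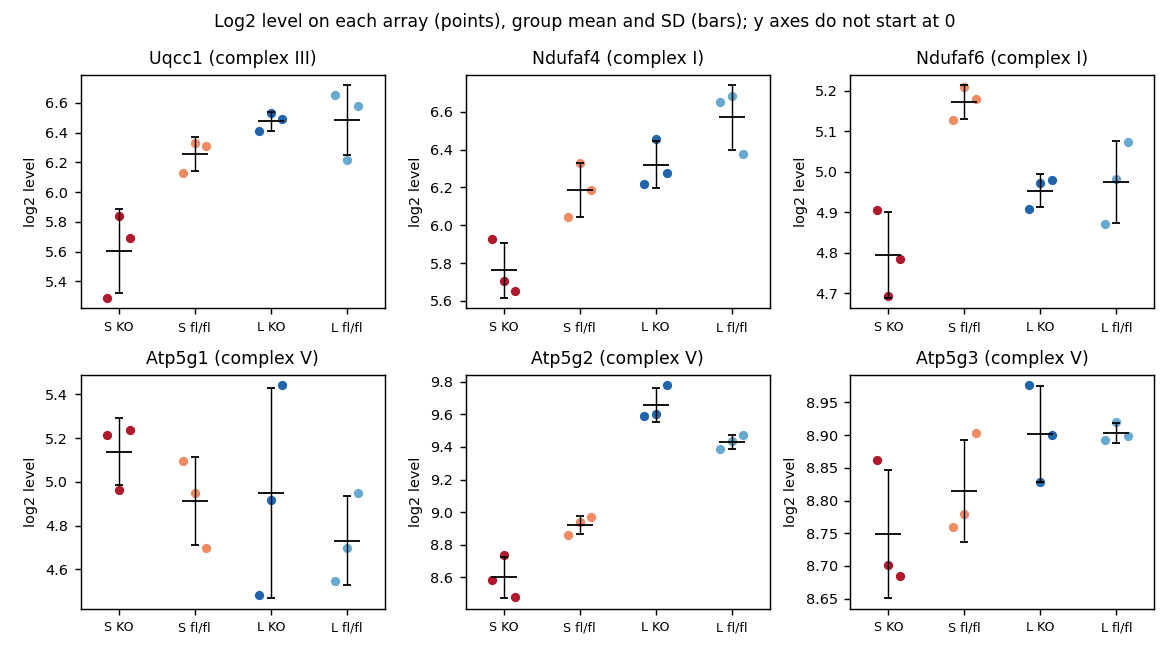
Log2 level on each array (points) of the assembly factors Uqcc1, Ndufaf4 and Ndufaf6 and of the subunit c genes Atp5g1, Atp5g2 and Atp5g3, in S-IECs and L-IECs of Nfat5IEC-KO (KO) and Nfat5fl/fl (fl/fl) mice, with the group mean and SD as bars; the y axes do not start at 0. Atp5g2 lies lower in the S-IEC arrays labelled Nfat5IEC-KO and higher in the L-IEC ones than in the Nfat5fl/fl arrays of the same tissue.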

How the data were processed

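RNA of 12 samples was hybridised to Affymetrix Mouse Gene 2.0 ST arrays. The deposited values are log2 signals per transcript cluster, made by the authors with the Transcriptome Analysis Console, with the mm10 build named in the submitters' processing notes; how they were background-corrected and normalized was not given in the sources used here. Values were used as deposited. Symbols came from the platform annotation, and 16004 of 41345 clusters had none and were left out; positions and promoters are RefSeq's for GRCm38.p6. Groups followed the labels. Each comparison was fitted with limma 3.58.1 (lmFit and eBayes, R 4.3.3) over 25341 clusters, with Benjamini-Hochberg adjustment and a threshold of 0.05; the script was tested on simulated data. Array data give no read depth, and 3 arrays per group limit the precision.

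Named genes were, per comparison, the 5 largest called differences in each direction, or those of smallest p, the smallest p of each complex, and fixed isoforms; from each further gene list, those of smallest p. The members and lists were chosen with earlier results of these data known. Replicate numbers were not used to pair the arrays in the main fits. Alternatives covered the fit, scaling, filter, clusters and arrays used. The one that leaves out both S-IEC arrays high in Car1 was chosen after seeing the data.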

Additional observations from a re-analysis of the deposited data

Results flagged for a closer look

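For Atp5g2, which encodes subunit c of ATP synthase, the genotype difference was -0.32 in S-IECs and 0.22 in L-IECs, with every array labelled Nfat5IEC-KO below every Nfat5fl/fl array in S-IECs and above every one in L-IECs. This opposite movement in the 2 tissues called for a closer look. The difference between them was -0.546 and was tested in limma over all 12 arrays, with an adjusted p of 0.247. The Nfat5 cluster did not separate the S-IEC arrays by genotype label.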

How the results depend on the processing

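The members lower in S-IECs at an adjusted p under 0.05 numbered 54 in Nfat5IEC-KO mice and 33 in Nfat5fl/fl mice, and they stayed within 1.5 times of that under all alternatives that changed the fit, the scaling, the filter or the clusters taken. With the replicate number as a replicate block they were 46 and 26, the Nfat5fl/fl call of Uqcrh was lost (adjusted p = 0.0511), and 1 member stood higher in the comparison of genotype differences between tissues where 0 did without it. Same-numbered arrays did not deviate together. Without both S-IEC arrays of Nfat5fl/fl mice that were high in Car1, chosen after seeing the data, 26 members fell in Nfat5fl/fl mice, 2 were lower and 1 higher by genotype in S-IECs, and 1 lower and 3 higher between tissues. Leaving out single arrays gave 39 to 49 lower and 0 to 2 higher members in Nfat5IEC-KO mice, and 21 to 28 lower and 0 to 1 higher in Nfat5fl/fl mice. With quantile normalization the median tissue difference in Nfat5IEC-KO mice was -0.341 in place of -0.426. In Nfat5fl/fl mice 1 member rose with a variance trend and robust fit, a filter on dim clusters or every single-symbol cluster of a member gene. In Nfat5IEC-KO mice 1 rose, in place of 2, with the filter, with every cluster of the table tested, with the methods' t-test or among structural subunits alone.

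The genotype counts moved more. In S-IECs the members higher at an unadjusted p under 0.05 were 1 with all 12 arrays in one fit, quantile normalization or the methods' t-test, those lower were 2 among structural subunits, and 1 member passed the adjusted p with all 12 arrays in one fit; without single arrays, 0 to 2 were higher and 3 to 9 lower. In L-IECs the members higher were 6 with trend and robust fit, 4 with the filter, 9 with the t-test and 1 with quantile normalization, every cluster tested or structural subunits. Those lower were 4 with trend and robust fit, 0 with every cluster tested and 1 with all 12 arrays, array weights, the filter, the t-test or structural subunits, and without single arrays 0 to 3 were higher and 0 to 3 lower. Between tissues, members lower were 8 with trend and robust fit, where 1 passed the adjusted p, 8 with every cluster of a member gene and 3 among structural subunits; those higher were 1 with array weights and 3 with quantile normalization, and without single arrays 4 to 7 were lower and 0 to 3 higher. Cycs changed sign, near 0, without single arrays: its genotype difference ran between -0.048 and 0.023 in S-IECs (0.018 without both Nfat5fl/fl arrays high in Car1), between -0.025 and 0.137 in L-IECs and between -0.147 and 0.014 in the comparison between tissues. The causes of these shifts were not tested. The number of arrays limits the precision, and dim clusters lie near the array's background.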
